A study of Mus musculus with 10 samples.

Results

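The 10 genes described here encode the peroxiredoxins Prdx1 to Prdx6, the thioredoxins Txn1 and Txn2, the thioredoxin reductase Txnrd1 and the sulfiredoxin Srxn1. They were chosen by symbol from a table of RNA-seq counts for 19999 genes, and all 10 were present and passed the filter on low counts. The counts come from total RNA of the retina of albino BALB/c mice, in 10 libraries. The LD-vehicle group holds 5 libraries from a model in which light damages the retina, and the CTRL-vehicle group holds 5 control libraries. Both groups carry the word vehicle in their library names, and the agent it stands for, the light exposure, the time after it and the age and sex of the animals are not stated. The design text also names a treatment, A74, and libraries of it were not analysed here. The labels do not say that each library came from its own animal, and a p-value here covers only the spread from library to library, which may be technical.

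Peroxiredoxins are abundant thiol peroxidases that reduce hydrogen peroxide and organic peroxides with a reactive cysteine. Thioredoxin returns most of them to the reduced form, thioredoxin reductase recharges thioredoxin with electrons from NADPH, and sulfiredoxin rescues peroxiredoxins whose cysteine was oxidised too far. Prdx1, Prdx2, Prdx6 and Txn1 work mainly in the cytosol, Prdx3 and Txn2 in mitochondria, Prdx4 in the endoplasmic reticulum, and Prdx5 in mitochondria, peroxisomes and cytosol. The retina combines a high oxygen use with light exposure and membranes rich in polyunsaturated lipids, and peroxide handling has long been studied there for that reason.

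All 10 genes had a positive log2 fold change in LD-vehicle retina, but the differences were small and 2 of them passed the test. Prdx6 and Prdx5 rose at the threshold used throughout, a Benjamini-Hochberg adjusted p under 0.05 in edgeR's quasi-likelihood test, and the other 8 did not pass. Of all 16852 genes tested, 5.32% were called higher in LD-vehicle retina, 13.2% were called in either direction, and 50.3% had a positive log2 fold change. The median log2 fold change was 0.20 over the 10 genes and 0.00 over all genes tested. Before adjustment, 9 of the 10 were higher with a p under 0.05, as were 14.0% of all genes. Groups did not overlap for 2 of the 10 genes, Prdx6 and Txn2, while 4.31% of all genes were likewise higher and 5.48% lower without overlap. Fewer cells of a type and less RNA per cell cannot be told apart in such bulk libraries.

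The libraries were not alike within the groups. Library totals lay between 17900227 and 20337329 counts in LD-vehicle and between 14652535 and 20699236 in CTRL-vehicle. LD-vehicle replicates 1 and 2 had 17174 and 20414 counts of Xist, the RNA of the inactive X chromosome, against 1 to 9 in the other 8 libraries. Female cells express Xist, and no CTRL-vehicle library had such counts. By this marker sex was unequal between the groups, and its part in the differences was not tested. All 10 lens markers tested had a positive log2 fold change, with a median of 6.96. Before adjustment all 10 were higher with an edgeR p under 0.05, as were 14.0% of all genes. After adjustment 3 of the 10 were called higher, as were 5.32% of all genes. Levels are given in CPM, a gene's counts scaled to a common library size, with edgeR's TMM factors. The summed level of the lens markers was 7540 and 4047 CPM in LD-vehicle replicates 1 and 2. It lay between 23.7 and 125 CPM in LD-vehicle replicates 3 to 5 and between 3.34 and 31.98 CPM in CTRL-vehicle. All 10 rod markers tested were detected in both groups, as in retina. Without LD-vehicle replicates 1 and 2, edgeR's quasi-likelihood test called 0 of the 10 genes, although 3 were higher at an unadjusted p under 0.05, and all 10 log2 fold changes stayed positive with a median of 0.17. That fit tested 17253 genes, of which 1551 were higher at an unadjusted edgeR p under 0.05. Of all genes, 0.782% were called higher among those 8 libraries. In that fit the log2 fold changes of the 10 genes ran from 0.12 for Txnrd1 to 0.30 for Prdx6, with 0.16 for Prdx1, 0.17 for Prdx2, 0.18 for Prdx3, 0.26 for Prdx4, 0.22 for Prdx5, 0.16 for Txn1, 0.18 for Txn2 and 0.15 for Srxn1.

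Prdx6, a peroxiredoxin that takes its electrons from glutathione and also acts on phospholipids, had the largest log2 fold change of the 10 genes with all libraries. Prdx4 passed it narrowly without CTRL-vehicle replicate 1 (0.41 for Prdx4, 0.40 for Prdx6) and lay level with it without CTRL-vehicle replicate 3 (0.33 for both). It had 159, 158, 167, 129 and 129 CPM in LD-vehicle replicates 1 to 5, against 124, 117, 103, 117 and 115 CPM in CTRL-vehicle replicates 1 to 5. Every LD-vehicle library lay above every CTRL-vehicle library, with replicates 1 to 3 well above replicates 4 and 5. Means were 148 ± 18.1 CPM in LD-vehicle and 115 ± 7.54 CPM in CTRL-vehicle (SD, n = 5 each). The fold change was 1.29, a log2 fold change of 0.37 (SE 0.08, edgeR adjusted p = 0.00771). The annotation also lists the near-identical Prdx6b and Prdx6-ps2, as well as Prdx2-rs3 and Txn-ps1, all of them absent from the deposited counts. How reads shared with such copies were counted is not stated, so levels of Prdx6, Prdx2 and Txn1 carry that uncertainty. Prdx6 kept its call in all 10 fits that left out 1 library, with adjusted p between 0.00389 and 0.0272. Without LD-vehicle replicates 1 and 2 its log2 fold change was 0.30 (SE 0.09) and the edgeR adjusted p was 0.092.

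Prdx5, the peroxiredoxin with the widest spread over cell compartments, had 105, 105, 109, 98.5 and 94.8 CPM in LD-vehicle replicates 1 to 5 and 96.2, 77.7, 78.6, 95.7 and 84.2 CPM in CTRL-vehicle replicates 1 to 5. Only LD-vehicle replicate 5 fell into the range of the controls, below CTRL-vehicle replicates 1 and 4. Means were 103 ± 5.77 CPM in LD-vehicle and 86.5 ± 9.02 CPM in CTRL-vehicle (SD, n = 5 each), with a log2 fold change of 0.25 (SE 0.07, edgeR adjusted p = 0.0287). The call was lost without any single one of LD-vehicle replicates 1, 2 and 3 or CTRL-vehicle replicates 2, 3 and 5, with adjusted p of 0.0733, 0.0711, 0.0747, 0.0618, 0.0614 and 0.0628 in that order. It was also lost without both LD-vehicle replicates 1 and 2 (log2 fold change 0.22, edgeR adjusted p = 0.172). Exons of Prdx5 share 409 bases with Trmt112 on the opposite strand, and whether reads were counted by strand is not stated. Trmt112 itself had a log2 fold change of 0.18 (edgeR adjusted p = 0.145).

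**Figure D1:**
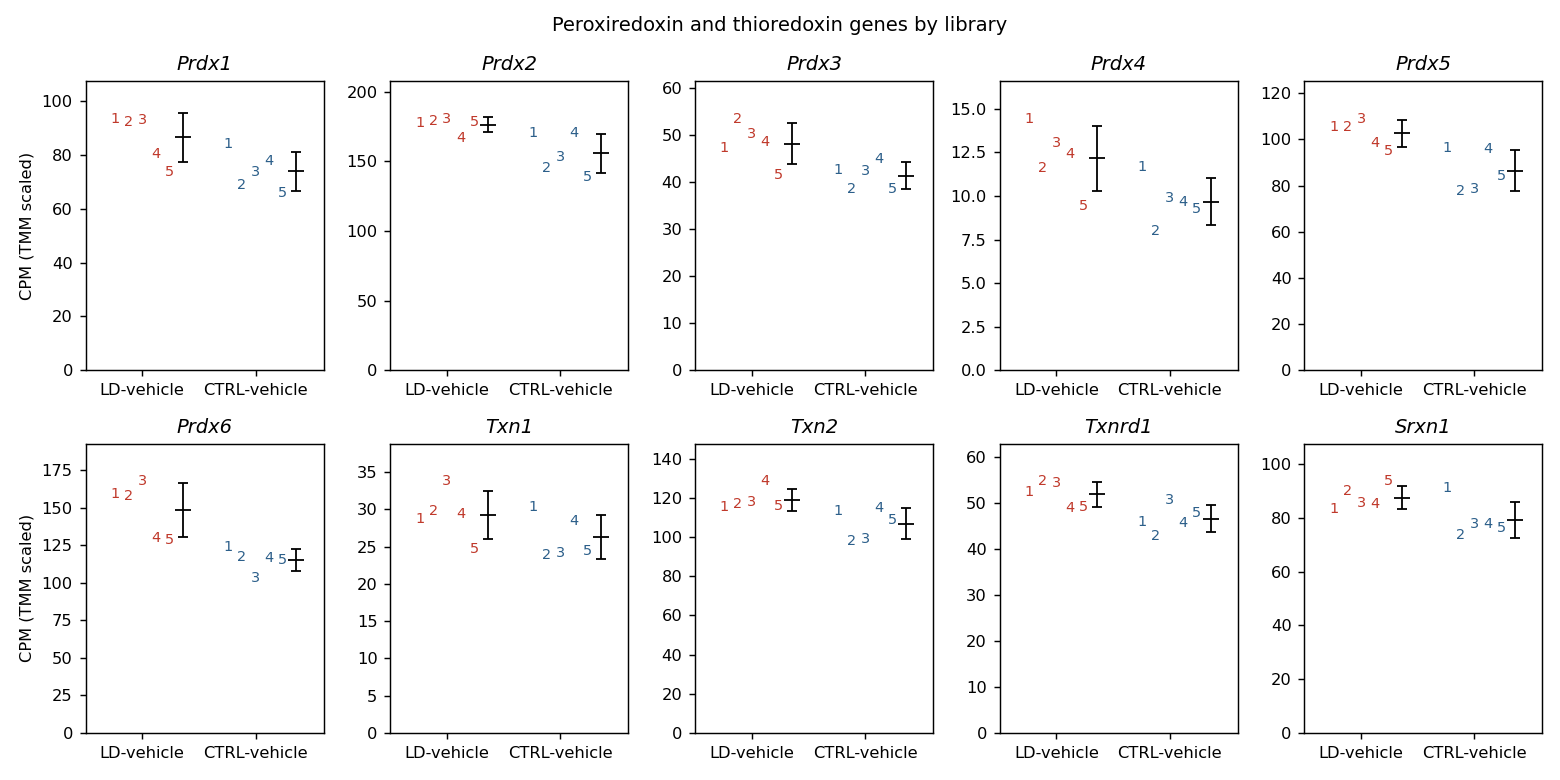
Level of each of the 10 genes in CPM, TMM scaled, in LD-vehicle and CTRL-vehicle retina; each digit is 1 library at its value and shows its replicate number, and the black bar is the mean ± SD of 5 libraries. Prdx6 and Txn2 are the genes whose groups do not overlap, and Prdx6 lies between 129 and 167 CPM in LD-vehicle and between 103 and 124 CPM in CTRL-vehicle.

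The other cytosolic peroxiredoxins, Prdx1 and Prdx2, missed the threshold. Prdx1, also a chaperone when oxidised, had 93.6, 92.2, 93.0, 80.5 and 73.8 CPM in LD-vehicle replicates 1 to 5, against 84.3, 68.7, 73.7, 77.7 and 65.9 CPM in CTRL-vehicle replicates 1 to 5. LD-vehicle replicates 1 to 3 lay above all controls, while replicates 4 and 5 lay among them. Prdx1 had a log2 fold change of 0.23 (SE 0.08, edgeR adjusted p = 0.0672), and 0.16 without LD-vehicle replicates 1 and 2. Prdx2, the peroxiredoxin known from red cells and neurons, had 178, 179, 181, 167 and 178 CPM in LD-vehicle and 170.5, 146, 153, 170.2 and 139 CPM in CTRL-vehicle, by replicate. The groups overlapped through LD-vehicle replicate 4, which lay below CTRL-vehicle replicates 1 and 4. Its log2 fold change was 0.18 (SE 0.06, edgeR adjusted p = 0.0677). Exons of Prdx2 share 173 bases with the AP-1 gene Junb and 177 bases with Rnaseh2a, both on the opposite strand. Junb had a log2 fold change of -0.48 (SE 0.40) and Rnaseh2a one of 0.08 (SE 0.09), and neither passed the test.

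The organelle peroxiredoxins Prdx3 and Prdx4 also overlapped between the groups. Prdx3, the mitochondrial form, had 47.2, 53.4, 50.1, 48.4 and 41.4 CPM in LD-vehicle and 42.6, 38.5, 42.4, 44.8 and 38.4 CPM in CTRL-vehicle, by replicate. LD-vehicle replicates 1 to 4 lay above all controls and replicate 5 lay among them. The log2 fold change was 0.22 (SE 0.07, edgeR adjusted p = 0.0549), and removing LD-vehicle replicate 5, CTRL-vehicle replicate 1 or CTRL-vehicle replicate 4 brought the adjusted p to 0.0198, 0.0455 and 0.0414. Prdx4, the form of the endoplasmic reticulum that feeds disulfide bonds into protein folding, was the least abundant. It had 14.4, 11.6, 13.0, 12.4 and 9.41 CPM in LD-vehicle and 11.7, 7.97, 9.87, 9.64 and 9.25 CPM in CTRL-vehicle, by replicate. The widest relative scatter of the 10 genes was that of Prdx4, whose log2 CPM ran from 0.42 above to 0.43 below its mean. Its log2 fold change, 0.33 (SE 0.12), was second to that of Prdx6 with all libraries, yet the edgeR adjusted p was 0.0892. Raw counts of Prdx4 lay between 124 and 275 per library, the lowest of the 10 genes.

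The summed level of the 6 peroxiredoxins was 574 ± 40.2 CPM in LD-vehicle and 482 ± 36.4 CPM in CTRL-vehicle (SD, n = 5 each). Sums were 598, 599, 613, 536 and 526 CPM in LD-vehicle replicates 1 to 5, against 529, 455, 461, 515 and 452 CPM in CTRL-vehicle replicates 1 to 5. The family sums overlapped only between LD-vehicle replicate 5 and CTRL-vehicle replicate 1. Prdx2 and Prdx6 together made up between 55.3% and 58.3% of this sum in LD-vehicle and between 55.6% and 57.7% in CTRL-vehicle.

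Both thioredoxins showed smaller differences. Txn2, the mitochondrial thioredoxin that serves Prdx3, had 115, 117, 118, 128 and 116 CPM in LD-vehicle replicates 1 to 5, against 113, 98.2, 98.8, 115 and 109 CPM in CTRL-vehicle replicates 1 to 5. Every LD-vehicle library lay above every control, but LD-vehicle replicate 1 exceeded CTRL-vehicle replicate 4 by less than 1 CPM. For Txn2 the log2 fold change was 0.16 (SE 0.06, edgeR adjusted p = 0.0907). Txn1, the cytosolic thioredoxin, had 28.7, 29.8, 33.7, 29.4 and 24.7 CPM in LD-vehicle and 30.4, 23.9, 24.2, 28.5 and 24.5 CPM in CTRL-vehicle, by replicate. These ranges overlapped over most of their width, and the log2 fold change was 0.15 (SE 0.09, edgeR adjusted p = 0.261). Txn1 was the gene of the 10 with an unadjusted p above 0.05, at 0.106. Its log2 fold change was 0.10 without LD-vehicle replicate 3, 0.10 with length and GC trends removed and 0.22 without CTRL-vehicle replicate 1, and it was called in none of the 20 alternative fits, with edgeR, DESeq2 or limma adjusted p between 0.0986 and 0.519.

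Txnrd1 and Srxn1, the enzymes that keep the cycle running, did not pass either. Txnrd1, the cytosolic selenoprotein that reduces Txn1, had 52.5, 54.7, 54.2, 48.8 and 49.0 CPM in LD-vehicle replicates 1 to 5, against 45.9, 42.9, 50.7, 45.7 and 47.8 CPM in CTRL-vehicle replicates 1 to 5. CTRL-vehicle replicate 3 lay above LD-vehicle replicates 4 and 5, and no other pair of libraries overlapped. The log2 fold change was 0.15 (SE 0.06, edgeR adjusted p = 0.103). Srxn1, a gene that many cell types induce under oxidative stress, had 83.2, 90.0, 85.6, 85.0 and 93.6 CPM in LD-vehicle and 91.0, 73.7, 77.8, 77.7 and 76.1 CPM in CTRL-vehicle, by replicate. CTRL-vehicle replicate 1 stood 13.1 CPM above the next control and above 4 of the 5 LD-vehicle libraries. Its log2 fold change was 0.14 (SE 0.06, edgeR adjusted p = 0.137), the smallest of the 10 with all libraries, and it was 0.20 (edgeR adjusted p = 0.0167) without that control.

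Prdx1, Txnrd1 and Srxn1 are known targets of NFE2L2, the transcription factor of the antioxidant response, which binds elements with the core TGACNNNGC. RefSeq promoter windows of 300 bases (250 before to 50 after a start, build GRCm38.p6) were at hand for 9 of the 10 genes, in 11 windows, and Prdx6 had none. The core was found, on either strand, in 3 of these 11 windows and in 12.4% of all 32851 windows. The 3 targets named above are only those whose windows held the core, and binding of NFE2L2 was not measured. All 3 matches were on the minus strand, so the printed strand shows the reverse complement of the core. The AP-1 motif TGANTCA occurred in 2 of the 11 windows and in 7.81% of all windows, and it overlaps the match in Prdx1. The matches are printed because these genes link the family to the gene lists described after it. Capitals mark the core, and coordinates are those of GRCm38.p6, not of the build named for the counts. The Prdx1 and Txnrd1 sequences are the 250 bases before the start, and the Srxn1 sequence is a stretch of 29 bases around a match 29 bases after the start. The Txnrd1 match lies in 1 of its 3 annotated windows.
Prdx1 chr4:116685349-116685598, plus strand: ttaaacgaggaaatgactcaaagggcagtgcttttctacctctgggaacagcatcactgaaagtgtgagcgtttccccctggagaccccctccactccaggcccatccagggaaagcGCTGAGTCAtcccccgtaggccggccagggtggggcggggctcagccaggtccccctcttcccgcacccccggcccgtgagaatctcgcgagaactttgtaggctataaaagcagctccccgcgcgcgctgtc
Txnrd1 chr10:82858956-82859205, plus strand: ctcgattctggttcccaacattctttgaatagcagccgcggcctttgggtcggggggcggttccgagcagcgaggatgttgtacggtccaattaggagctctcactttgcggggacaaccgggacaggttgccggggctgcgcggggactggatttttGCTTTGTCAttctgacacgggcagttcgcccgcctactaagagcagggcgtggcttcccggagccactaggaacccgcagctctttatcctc
Srxn1 chr2:152105542-152105570, plus strand: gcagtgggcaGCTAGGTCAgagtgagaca

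Levels differed more between the genes than between the groups. Per kilobase of the longest coding transcript, Prdx2 was highest, at 110 ± 3.47 CPM per kilobase in LD-vehicle and 96.6 ± 8.82 in CTRL-vehicle (SD, n = 5 each), and Prdx4 was lowest, at 12.3 ± 1.88 in LD-vehicle and 9.78 ± 1.34 in CTRL-vehicle. In LD-vehicle the order below Prdx2 was Prdx5 with 81.3 ± 4.57, Prdx6 with 62.2 ± 7.60, Txn2 with 58.0 ± 2.63, Prdx1 with 37.8 ± 3.91, Prdx3 with 32.6 ± 2.99, Srxn1 with 31.1 ± 1.50, Txn1 with 27.8 ± 3.08 and Txnrd1 with 14.3 ± 0.771 CPM per kilobase. Between neighbours in that order, the ranges of mean ± SD overlapped for Prdx6 and Txn2, Prdx1 and Prdx3, and Prdx3 and Srxn1. They also overlapped for Srxn1 and Txn1 and for Txnrd1 and Prdx4. In CTRL-vehicle Txn2, at 52.1 ± 3.86, lay above Prdx6, at 48.2 ± 3.16 CPM per kilobase, again with overlapping ranges of mean ± SD. The order depends on the transcript taken. Per kilobase of the shortest coding transcript Prdx5 came first, with 205 ± 11.5 CPM per kilobase in LD-vehicle and 173 ± 17.99 in CTRL-vehicle, and Prdx4 stayed last.

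Across libraries most of the genes moved together. In LD-vehicle replicates 1, 2 and 3 all 10 genes lay above their own mean over the 10 libraries, against 8 in replicate 4 and 4 in replicate 5. Among the controls 7 genes lay above their mean in CTRL-vehicle replicate 1 and 5 in replicate 4, but 0, 1 and 0 in replicates 2, 3 and 5. LD-vehicle replicate 3, with few Xist counts and a lens marker sum of 125 CPM, below replicates 1 and 2 and above all controls, had the highest median deviation, 0.19 on the log2 scale. LD-vehicle replicate 5 and CTRL-vehicle replicate 1 thus stood nearest to the other group. Prdx2, Txn2 and Srxn1 did not follow the low values of LD-vehicle replicate 5, where Srxn1 had its highest level.

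**Figure D2:**
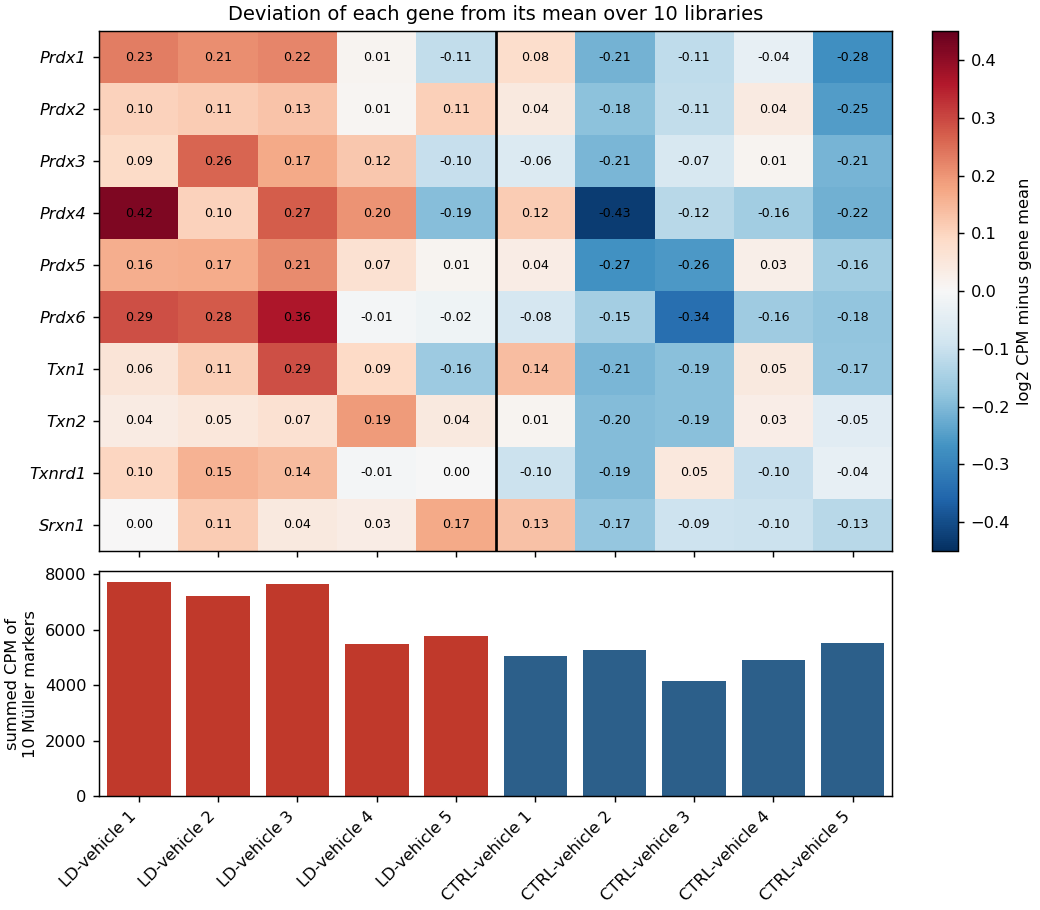
Upper panel: log2 CPM of each gene minus its mean over 10 libraries, red above and blue below, with LD-vehicle libraries left of the black line and CTRL-vehicle libraries right of it. Lower panel: summed CPM of the 10 Müller glia markers in the same libraries, highest in LD-vehicle replicates 1 to 3, where Prdx6 and Prdx1 are also highest. Sums of the lens, microglia and macrophage, and endothelium and pericyte markers, not drawn, were highest in the same replicates.

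Müller glia, which span the retina from vitreous to photoreceptors, are known to carry much of its glutathione and peroxide metabolism. Over all genes tested, 5.32% were called higher and 7.85% lower in LD-vehicle. Of 10 Müller markers tested, 4 rose and none fell. Their summed level was 7717, 7220, 7643, 5485 and 5781 CPM in LD-vehicle replicates 1 to 5, and lay between 4164 and 5534 CPM in CTRL-vehicle. None of the 10 was at 0 in any group. The 3 libraries with the highest Müller sums were the 3 with the highest Prdx6, and CTRL-vehicle replicate 3 was lowest in both. The same 3 libraries also had the highest sums of the lens, the microglia and macrophage, and the endothelium and pericyte markers. Endothelium and pericyte sums lay between 240 and 391 CPM in LD-vehicle and between 267 and 313 CPM in CTRL-vehicle, with 0 of 7 markers called. As with the Müller markers, some bipolar and amacrine cell markers were called higher in LD-vehicle. The bipolar list had 4 of 8 markers called higher and none lower, with sums between 1236 and 1444 CPM in LD-vehicle and between 1057 and 1334 CPM in CTRL-vehicle. Of 8 amacrine cell markers, C1ql2 among them, 3 rose and none fell, with sums between 1143 and 1282 CPM in LD-vehicle and between 933.6 and 1152 CPM in CTRL-vehicle. Both sums were highest in LD-vehicle replicate 3, as was Prdx6. Ganglion cell markers summed to between 1037 and 1125 CPM in LD-vehicle and between 899.7 and 1241 CPM in CTRL-vehicle, with 0 of 7 called. Rod marker sums lay between 56243 and 79065 CPM in LD-vehicle and between 60401 and 99610 CPM in CTRL-vehicle, with 1 of 10 markers called higher and none lower. The log2 fold change was positive for 3 of the 10 rod markers, with a median of -0.11. It was positive for 2 of 7 cone markers, with a median of -0.07, and 1 of the 7 was called lower and 0 higher. Cone sums lay between 1517 and 1779 CPM in LD-vehicle and between 1462 and 1820 CPM in CTRL-vehicle. Sums of the microglia and macrophage markers lay between 57.0 and 124 CPM in LD-vehicle, highest in replicate 3, and between 42.1 and 59.4 CPM in CTRL-vehicle, with 1 of 10 called higher. The markers of pigment epithelium and ciliary body summed to 472, 342, 130, 200 and 88.1 CPM in LD-vehicle replicates 1 to 5. In CTRL-vehicle they summed to between 43.7 and 118 CPM, and 3 of 10 were called higher in LD-vehicle. What part any of these cell types has in the levels of Prdx6 or the other genes was not tested.

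The 5 genes with the pattern most like that of Prdx6 were Ctsd, Npc2, C1ql2, Smim1 and Chst2. Likeness was the root mean square difference of log2 CPM centred over the 10 libraries, among 13477 named genes whose mean reached 1 CPM. It was 0.06 for Ctsd, a lysosomal protease, and for Npc2, a lysosomal cholesterol carrier, and 0.07 for C1ql2, Smim1 and Chst2. Ctsd averaged 224 CPM in LD-vehicle and 173 CPM in CTRL-vehicle. This is a description of the same 10 libraries and carries no test.

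Of 48 further redox genes in 4 lists, all tested, 6 rose and 2 fell in LD-vehicle retina. Over all genes 5.32% rose and 7.85% fell. The median log2 fold change of the 48 was 0.13. The count of 8 called genes was 2, 3, 2 and 4 without LD-vehicle replicates 1, 2, 3 and 4, and 14 and 3 without CTRL-vehicle replicates 1 and 5. Without both LD-vehicle replicates 1 and 2 a single gene, Tkt, was called.

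Among the 10 partners of thioredoxin, 2 rose and none fell. Nxn, nucleoredoxin, a thioredoxin relative that restrains Wnt signaling, had 32.3, 30.1, 29.9, 23.7 and 20.6 CPM in LD-vehicle and 21.0, 18.6, 20.3, 16.8 and 17.5 CPM in CTRL-vehicle, by replicate. Only LD-vehicle replicate 5 lay below a control, CTRL-vehicle replicate 1. The log2 fold change was 0.53 (SE 0.11, edgeR adjusted p = 0.00855) and the call held without any 1 library, though not without both LD-vehicle replicates 1 and 2 (0.39, edgeR adjusted p = 0.0912). Map3k5, the stress kinase ASK1 that reduced thioredoxin holds inactive, had a mean of 24.0 ± 2.71 CPM in LD-vehicle and 18.7 ± 2.48 CPM in CTRL-vehicle (SD, n = 5 each), with a log2 fold change of 0.36 (edgeR adjusted p = 0.0284). That call was lost without LD-vehicle replicate 1, 2 or 3 or CTRL-vehicle replicate 4 or 5, with adjusted p up to 0.0767, and without both LD-vehicle replicates 1 and 2 (0.172). Txnip, the inhibitor of thioredoxin, averaged 7.995 ± 0.825 CPM in LD-vehicle and 8.90 ± 0.753 CPM in CTRL-vehicle and did not pass (edgeR adjusted p = 0.371). Neither did Txnrd2, the mitochondrial reductase that serves Txn2, with a log2 fold change of 0.07. Nxnl1 and Nxnl2, thioredoxin-like genes of rods and cones that encode cone survival factors, had log2 fold changes of -0.16 (SE 0.15) and -0.19 (SE 0.11) and did not pass.

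Among 12 genes of peroxiredoxin repair, glutaredoxins and methionine repair, 1 rose and none fell. Msrb1, a selenoprotein that reduces oxidised methionine, had 16.4, 16.0, 16.3, 15.7 and 15.4 CPM in LD-vehicle and 14.1, 11.9, 11.8, 14.3 and 13.8 CPM in CTRL-vehicle, by replicate. The groups did not overlap, and the log2 fold change was 0.28 (SE 0.08, edgeR adjusted p = 0.0399). It kept its call only without LD-vehicle replicate 5, CTRL-vehicle replicate 1 or CTRL-vehicle replicate 4 among the 10 fits that left out 1 library, the adjusted p reaching 0.0947 without LD-vehicle replicate 1. It was 0.184 without LD-vehicle replicates 1 and 2 and 0.0571 with length and GC trends removed. Gstp1, the glutathione transferase that passes glutathione to Prdx6, averaged 78.3 ± 3.96 CPM in LD-vehicle and 66.8 ± 9.72 CPM in CTRL-vehicle and did not pass (edgeR adjusted p = 0.0796). The sestrins Sesn1, Sesn2 and Sesn3 had log2 fold changes between -0.06 and 0.05.

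In the NFE2L2 list 2 of 17 genes rose and 1 fell. Before adjustment 7 of the 17 were higher and 1 lower with an edgeR p under 0.05, while 14.0% of all genes were higher. Keap1, Gclc, Pgd and Tkt, 4 of the 17, were higher without overlap between the groups, as were 4.31% of all genes. Of these 4 genes only Tkt was called. Tkt, transketolase of the pentose phosphate pathway that supplies NADPH, had 410, 368, 377, 329 and 336 CPM in LD-vehicle and 285, 271, 260, 250 and 291 CPM in CTRL-vehicle, by replicate. The groups did not overlap, the log2 fold change was 0.42 (SE 0.07, edgeR adjusted p = 0.00221), and the call held in all 20 alternative fits, among them the fit without LD-vehicle replicates 1 and 2 (0.36, edgeR adjusted p = 0.034). Hmox1, the stress-induced heme oxygenase, had 6.88, 10.8, 8.80, 6.37 and 5.73 CPM in LD-vehicle and 6.19, 3.67, 6.29, 4.88 and 3.43 CPM in CTRL-vehicle, by replicate. Its log2 fold change was 0.65 (SE 0.20, edgeR adjusted p = 0.0486). Among the 10 fits that left out 1 library the call remained in 3, those without LD-vehicle replicate 5, CTRL-vehicle replicate 1 or CTRL-vehicle replicate 3. The adjusted p was 0.206 without both LD-vehicle replicates 1 and 2, 0.0565 by limma-voom, 0.0572 without robust dispersion and 0.0561 with length and GC trends removed. Mafg, a small MAF partner of NFE2L2, fell to 87.8 ± 10.3 CPM in LD-vehicle, against 113 ± 14.4 CPM in CTRL-vehicle, a log2 fold change of -0.36 (SE 0.09, edgeR adjusted p = 0.021). That call was lost without LD-vehicle replicate 1 (0.0527), without LD-vehicle replicate 3 (0.0567), without both LD-vehicle replicates 1 and 2 (0.119) and with library totals in place of TMM (0.0587). Mafg exons share 124 bases with Sirt7, whose log2 fold change was -0.23 (edgeR adjusted p = 0.172).

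Nfe2l2 itself averaged 31.4 ± 2.36 CPM in LD-vehicle and 31.4 ± 3.14 CPM in CTRL-vehicle (SD, n = 5 each), with a log2 fold change of 0.00 (SE 0.08). Its classic target Nqo1 had 5.26, 3.67, 3.31, 2.49 and 3.90 CPM in LD-vehicle and 3.47, 1.80, 3.15, 3.11 and 2.60 CPM in CTRL-vehicle, by replicate, and did not pass (edgeR adjusted p = 0.223). Slc7a11, the cystine importer that feeds glutathione synthesis, had 11.02 and 13.9 CPM in LD-vehicle replicates 1 and 2, the libraries high in Xist and lens markers. It lay between 3.45 and 3.93 CPM in LD-vehicle replicates 3 to 5 and between 3.07 and 4.37 CPM in CTRL-vehicle. The log2 fold change over all libraries was 0.94 (SE 0.44, edgeR adjusted p = 0.185). Srxn1, a known NFE2L2 target, had 83.2 and 90.0 CPM in LD-vehicle replicates 1 and 2. It had between 85.0 and 93.6 CPM in LD-vehicle replicates 3 to 5. The part of NFE2L2 in the levels of these genes was not tested.

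Of 9 genes of thiol oxidation in the endoplasmic reticulum, the compartment of Prdx4, 1 rose and 1 fell. Ero1l, the oxidase that makes hydrogen peroxide while it forms disulfides, had 34.9, 35.4, 33.8, 34.1 and 37.7 CPM in LD-vehicle and 43.8, 41.9, 39.9, 37.3 and 45.8 CPM in CTRL-vehicle, by replicate. The overlap came from LD-vehicle replicate 5 and CTRL-vehicle replicate 4, and the log2 fold change was -0.25 (SE 0.07, edgeR adjusted p = 0.0239). It lost its call without LD-vehicle replicate 1, 2, 3 or 4 or CTRL-vehicle replicate 5, with adjusted p between 0.0522 and 0.0637, and without both LD-vehicle replicates 1 and 2 (0.124). Pdia6, a protein disulfide isomerase, averaged 104 ± 4.36 CPM in LD-vehicle and 89.3 ± 10.3 CPM in CTRL-vehicle, a log2 fold change of 0.22 (SE 0.07, edgeR adjusted p = 0.0451). Its call remained without LD-vehicle replicate 5, CTRL-vehicle replicate 1 or CTRL-vehicle replicate 3 and was lost without any other single library, with adjusted p up to 0.117, and without both LD-vehicle replicates 1 and 2 (0.229). It was also lost with library totals (0.054), without robust dispersion (0.0544) and with length and GC trends removed (0.0633).

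**Figure D3:**
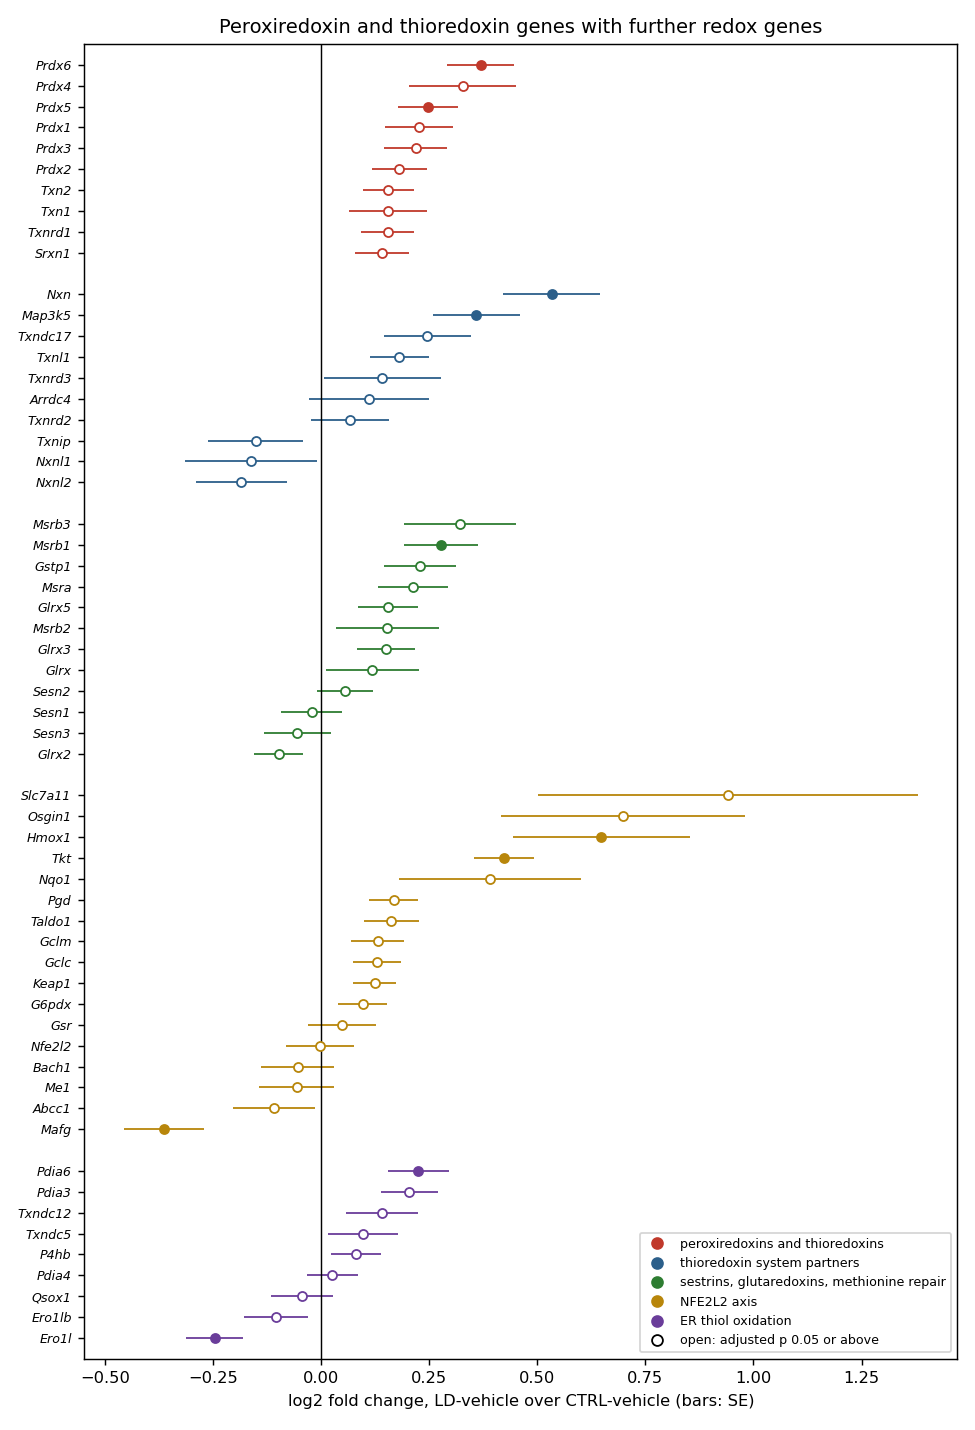
Log2 fold change of LD-vehicle over CTRL-vehicle for the 10 genes and the 48 further redox genes, with bars of 1 SE from edgeR; filled points had an adjusted p under 0.05. The 10 peroxiredoxin and thioredoxin genes lie between 0.14 for Srxn1 and 0.37 for Prdx6.

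How many of the 10 genes were called depended on single libraries. Without LD-vehicle replicate 1, 2 or 3 or CTRL-vehicle replicate 2, 3 or 5 the count was 1, Prdx6 alone, and without LD-vehicle replicate 4 it was 2. It was 5 without LD-vehicle replicate 5, 4 without CTRL-vehicle replicate 4 and 8 without CTRL-vehicle replicate 1. The share of all genes called higher moved as well, to 2.58%, 2.83%, 2.34%, 3.84% and 5.78% without LD-vehicle replicates 1 to 5. It was 7.91%, 3.77%, 3.74%, 4.79% and 3.46% without CTRL-vehicle replicates 1 to 5. With all libraries kept, 2 of the 10 genes were called under upper-quartile scaling, under DESeq2's size factors in edgeR, by limma-voom and without robust dispersion, where 5.17%, 5.44%, 5.06% and 5.39% of all genes were called higher. The count was 6 with library totals alone, 5 by DESeq2's Wald test and 3 without a filter on low counts, against 6.81%, 7.77% and 4.62% of all genes. A fit with the replicate number as a block called 7 of the 10 genes and 8.49% of all genes higher. No log2 fold change of the 10 genes turned negative in any of the 20 alternative fits, 3 other scalings among them. Over all genes, the log2 fold change also differed with transcript length. Its median was 0.06 in the shortest of 4 classes of transcript length and -0.06 in the longest. With length and GC trends removed from each library, the median over the 10 genes was 0.16, Prdx6 and Prdx5 stayed called, and 6.75% of all genes were called higher.

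**Figure D4:**
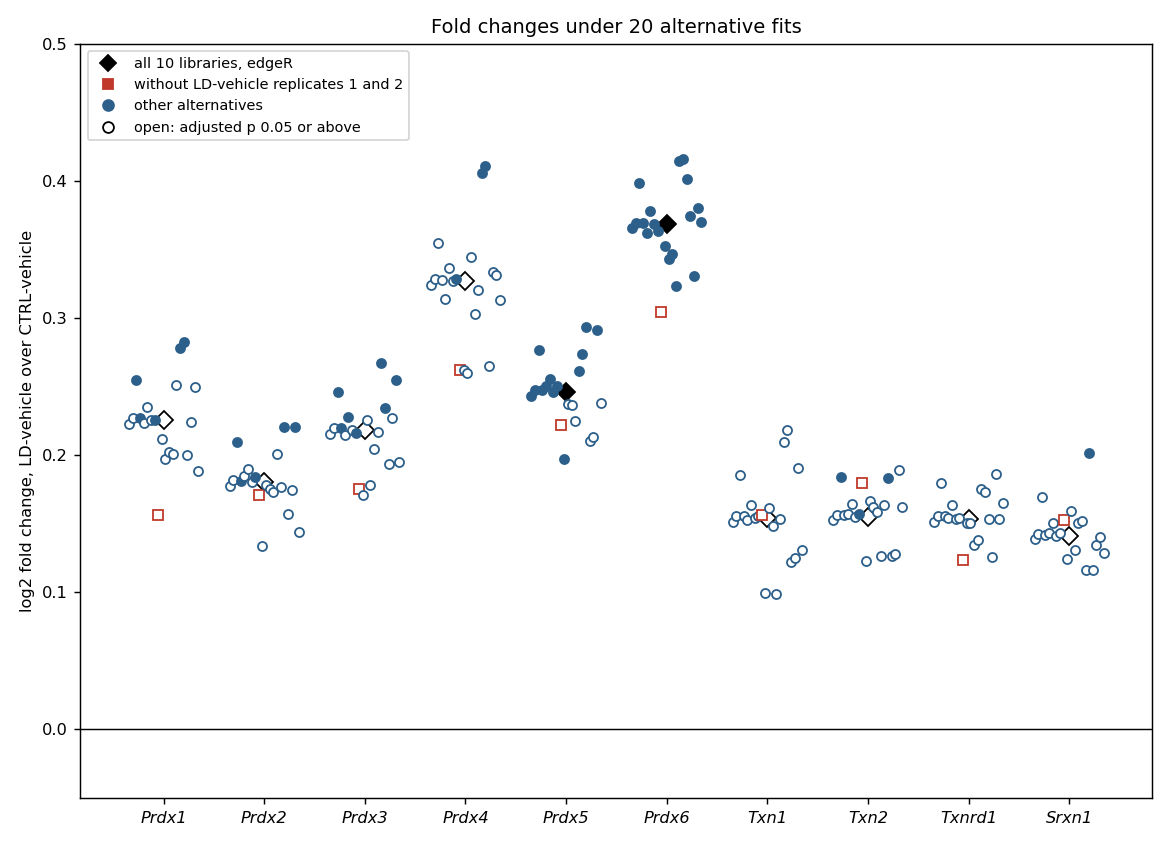
Log2 fold change of each of the 10 genes with all 10 libraries (black diamond), without LD-vehicle replicates 1 and 2 (red square) and in the other alternative fits (blue circles), filled where the adjusted p was under 0.05. All points lie above 0, and Prdx6 is filled in every fit except the red square, at 0.30.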

How the data were processed

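Retinal total RNA of 5 LD-vehicle and 5 CTRL-vehicle libraries, with the same batch entry, was compared. The deposited values are counts per gene, all whole numbers, and whether they are rounded estimates is not stated. Build GRCm39, RSEM 1.3.1, Bowtie2 and DESeq2 1.4.5 are listed in the submitters' processing notes without their roles, so it is not stated whether reads of near-identical copies were divided by estimation. Symbols, transcript lengths and exon overlaps came from GENCODE M21 (GRCm38), and 19892 identifiers matched a symbol.

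Counts were tested in R 4.3.3 with edgeR 4.0.16: filterByExpr, TMM scaling, robust quasi-likelihood test, Benjamini-Hochberg adjustment over 16852 genes. SEs came from the F statistic; the prior count for log2 CPM was 2. Alternatives used DESeq2 1.42.0, limma 3.58.1, other scalings, no filter, no robust dispersion, a replicate block and omitted libraries. Removal of length and GC trends by lowess (span 0.3) was chosen after seeing the data. The genes and lists were chosen with earlier results of these data known. All 10 genes are named, with each called gene of the 4 redox lists. Other redox genes (Txnip, Txnrd2, Nxnl1, Nxnl2, Gstp1, the sestrins, Nfe2l2, Nqo1, Slc7a11, Keap1, Gclc, Pgd) were named after their values were seen. The steps were tested on simulated counts, with fold changes larger than those of the 10 genes, so differences as small as theirs were not covered. No library was a copy of another: chi-square per degree of freedom was 5.77 or more in each pair.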

Additional observations from a re-analysis of the deposited data

Results flagged for a closer look

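Among 36 groups of 5 libraries checked, the 10 genes and the 8 called redox genes in LD-vehicle and CTRL-vehicle, 4 held a library far from the other 4, where chance alone flags about 1 in 20. Prdx2 had 167 CPM in LD-vehicle replicate 4, below 178 to 181 CPM in the others. Txn2 had 128 CPM in LD-vehicle replicate 4, above 115 to 118 CPM. Srxn1 had 91.0 CPM in CTRL-vehicle replicate 1, above 73.7 to 77.8 CPM. Map3k5 had 19.2 CPM in LD-vehicle replicate 4, below 24.6 to 25.7 CPM.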

How the results depend on the processing

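All 10 genes kept a positive log2 fold change in the 20 alternative fits. With library totals in place of TMM, 6 of them were called, Prdx1 (0.25), Prdx2 (0.21), Prdx3 (0.25) and Txn2 (0.18) in addition, and the median of all genes moved to 0.03. DESeq2 called 5, adding Prdx1 (0.23), Prdx2 (0.18) and Prdx3 (0.22), and no filter on low counts added Prdx3 (0.23). With the replicate number as a block 7 were called, beside 8.49% of all genes called higher, adding Prdx1 (0.23), Prdx2 (0.18), Prdx3 (0.22), Prdx4 (0.33) and Txn2 (0.16), and 13 redox genes. Same-numbered libraries correlated between 0.05 and 0.32 in their deviations. Only LD-vehicle replicates 3 and 4 correlated best with the control of their own number. The numbers were not taken as pairs, though this check cannot exclude pairing. Without LD-vehicle replicates 1 and 2, 0 of the 10 genes, 1 redox gene and 403 genes in all were called, against 2219, with Prdx6 at 0.30 and Prdx5 at 0.22; the cause was not tested. Over fits without 1 library, between 1127 and 2991 genes, 1 and 8 of the 10, and 2 and 14 redox genes were called. Log2 fold changes then ran from 0.19 to 0.28 for Prdx1, 0.14 to 0.22 for Prdx2, 0.18 to 0.27 for Prdx3, 0.26 to 0.41 for Prdx4, 0.21 to 0.29 for Prdx5, 0.099 to 0.22 for Txn1, 0.13 to 0.19 for Txn2 and 0.12 to 0.20 for Srxn1. Prdx4 had the fewest counts of the 10 genes, 124 to 275 per library.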
